A study of Mus musculus with 28 samples.

Results

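The NR4A and EGR factors are transcription factors encoded by immediate-early genes, and T cells switch them on when the T cell receptor (TCR) is engaged. The 7 genes described here are Nr4a1, Nr4a2 and Nr4a3, which encode the 3 NR4A orphan nuclear receptors, Egr1, Egr2 and Egr3, which encode early growth response zinc finger factors, and Nab2, which encodes a co-repressor that binds EGR proteins. They were chosen by symbol from 23420 gene symbols counted in each library, and all 7 were among the 13338 genes with enough counts to be tested. The label of TCR signalling rests on what these genes are known for. No sample was stimulated through its receptor, so the values are levels in cells as sorted.

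NR4A proteins bind DNA without a known natural ligand. In mice, Nr4a1 levels track the strength of TCR signalling, and reporters driven by its regulatory sequence are used for that purpose. Developing regulatory T (Treg) cells receive stronger self-antigen signals than most conventional thymocytes, and NR4A factors contribute to induction of Foxp3, the transcription factor that defines Treg cells. Egr2 and Egr3 restrain T cell activation and act in anergy, while Egr1 is induced through the MAP kinase pathway and drives Nab2, which in turn limits EGR activity.

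RNA was sequenced from CD4 T cells of male mice aged 6 to 8 weeks, from thymus and spleen. In the KO groups (n = 4 libraries each), mice carried Foxp3ΔCNS3-gfp, a Foxp3-gfp reporter allele that lacks the enhancer CNS3. The WT groups (n = 3 each) were littermates with the intact Foxp3-gfp allele, so that KO and WT cells all carry the reporter. Each genotype was sampled in thymic Treg cells, thymic CD4 single-positive cells sorted as conventional (CD4SP), and 2 splenic Treg populations named rTreg and aTreg in the titles, which do not expand the r and a. The allele is in the germline and so is present in every cell type. The series' text speaks of sorting from a pair of littermates, and nothing ties a library to an animal. P-values therefore measure the spread between these libraries, part of which may be technical.

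Gene counts per library ranged from 22037995 to 40754492, and no pair of libraries in a group agreed within sampling noise. Foxp3 averaged 544 ± 73.7 CPM in KO and 652 ± 16.3 CPM in WT thymic Treg cells (SD), and 1.44 ± 0.363 CPM in KO and 3.37 ± 0.131 CPM in WT CD4SP cells. The deleted enhancer is not exonic, so these counts do not check the deletion. Klrg1, a receptor of terminally activated cells, averaged 239 ± 26.4 CPM in WT aTreg and 12.3 ± 4.16 CPM in WT rTreg cells. Of the KO libraries, thymic Treg 1 and 2 held the highest sums of 10 myeloid markers, and CD4SP 2 stood apart with more myeloid and immature thymocyte RNA than the rest of its group. In bulk RNA, fewer expressing cells and less RNA per cell cannot be told apart.

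The promoters of the 3 NR4A genes are shown because their levels went together over the 28 libraries (Pearson's r of 0.80 to 0.87 between them). That of Egr2, from the other family, is shown beside them. Egr2 levels followed those of the NR4A genes in part (r of 0.51 to 0.69), so Egr2 is no contrast in behaviour. Sequences are the 250 bases upstream of a start in RefSeq's GRCm38.p6 annotation, read on the gene's strand. Capitals mark the CRE core TGACG on either strand (CGTCA when read on the other), which CREB family factors bind, and in Egr2 also the CArG box bound by serum response factor. For Nr4a3 only the 98 bases outside annotated exons are shown. The regions are chr15:101266596-101266845 (plus strand, inside the annotated gene and outside its exons), chr2:57124004-57124253 (minus strand), chr4:48045055-48045152 (plus strand) and chr10:67537619-67537868 (plus strand, inside the annotated gene and outside its exons).
Nr4a1: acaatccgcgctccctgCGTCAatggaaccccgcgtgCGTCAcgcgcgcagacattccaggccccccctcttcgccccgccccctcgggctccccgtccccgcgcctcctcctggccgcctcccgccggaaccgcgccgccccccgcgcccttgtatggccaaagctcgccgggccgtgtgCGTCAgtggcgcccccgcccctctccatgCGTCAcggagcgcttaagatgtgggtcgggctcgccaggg
Nr4a2: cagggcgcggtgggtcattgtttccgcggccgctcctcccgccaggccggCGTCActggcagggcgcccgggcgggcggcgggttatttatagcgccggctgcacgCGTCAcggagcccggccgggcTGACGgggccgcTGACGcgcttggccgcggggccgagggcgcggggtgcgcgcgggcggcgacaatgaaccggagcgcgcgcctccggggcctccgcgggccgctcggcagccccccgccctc
Nr4a3: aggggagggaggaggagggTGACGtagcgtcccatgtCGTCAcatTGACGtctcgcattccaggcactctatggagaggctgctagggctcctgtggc
Egr2: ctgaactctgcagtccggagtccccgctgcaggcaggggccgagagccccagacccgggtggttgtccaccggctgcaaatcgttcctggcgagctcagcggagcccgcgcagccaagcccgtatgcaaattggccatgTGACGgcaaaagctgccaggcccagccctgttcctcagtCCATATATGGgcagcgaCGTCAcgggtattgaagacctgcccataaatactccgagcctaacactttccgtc

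Each NR4A promoter held 4 CRE cores in its 250 bases, of which the stretch shown for Nr4a3 carries 3. Of 32851 RefSeq promoters of that length, 17.8% held at least 1 and 0.137% held 4 or more. In Nr4a1 each of the 4 was part of the longer string TGCGTCA, which 1.75% of promoters hold at least once. That string was searched after the sequence had been seen. The Egr2 stretch held 2 CRE cores and 1 CArG box, a motif present in 1.47% of promoters, and the Nab2 promoter held neither. The promoters of Egr1 and Egr3 are not described here, so these counts do not compare the NR4A and EGR families. RefSeq gives 5 Egr2 starts, some of them overlapping windows: 3 windows held both motifs as shown, 1 held a CArG box and no CRE core, and 1, at the most upstream start, held neither. The EGR site GCGNGGGCG, searched on both strands, occurred 1 time each in Nr4a1 and Nr4a2, against 4.70% of all promoters. The full CRE TGACGTCA (1.55% of promoters), the NR4A monomer site AAAGGTCA (1.34%) and the AP-1 site TGANTCA (6.75%) were not found in these windows. A match of letters is a description and shows no binding.

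Nr4a1 (chr15:101254269-101274795, plus strand, GRCm38) was the most abundant NR4A transcript in every group. In CPM (counts scaled to library size, by the TMM method), thymic Treg cells gave 336, 267, 295 and 338 in KO and 300, 305 and 357 in WT. CD4SP cells gave 124, 131, 126 and 118 CPM in KO and 109, 126 and 108 CPM in WT. The genotypes overlapped in both thymic populations, and every thymic Treg library stood above every CD4SP library. In rTreg cells Nr4a1 read 166, 164, 209 and 227 CPM in KO and 176, 188 and 163 CPM in WT. In aTreg cells it read 190, 194, 200 and 203 CPM in KO and 208, 215 and 207 CPM in WT. Here the 4 KO libraries lay below the 3 WT libraries by a narrow margin. In this comparison 8.13% of all genes had groups that did not overlap. The log2 fold change of Nr4a1 was -0.09 (adjusted p = 0.934 by edgeR's test). By group mean, the order ran from WT thymic Treg (320 ± 31.4 CPM) and KO thymic Treg (309 ± 34.5) through WT aTreg (210 ± 4.15), KO aTreg (197 ± 5.78), KO rTreg (192 ± 31.5) and WT rTreg (175 ± 12.7) to KO CD4SP (125 ± 5.58) and WT CD4SP (115 ± 10.02), a 2.80-fold span. Neighbours in that order lay further apart than the sum of their SDs below KO thymic Treg, between WT aTreg and KO aTreg, and below WT rTreg. The other neighbours did not.

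**Figure D1:**
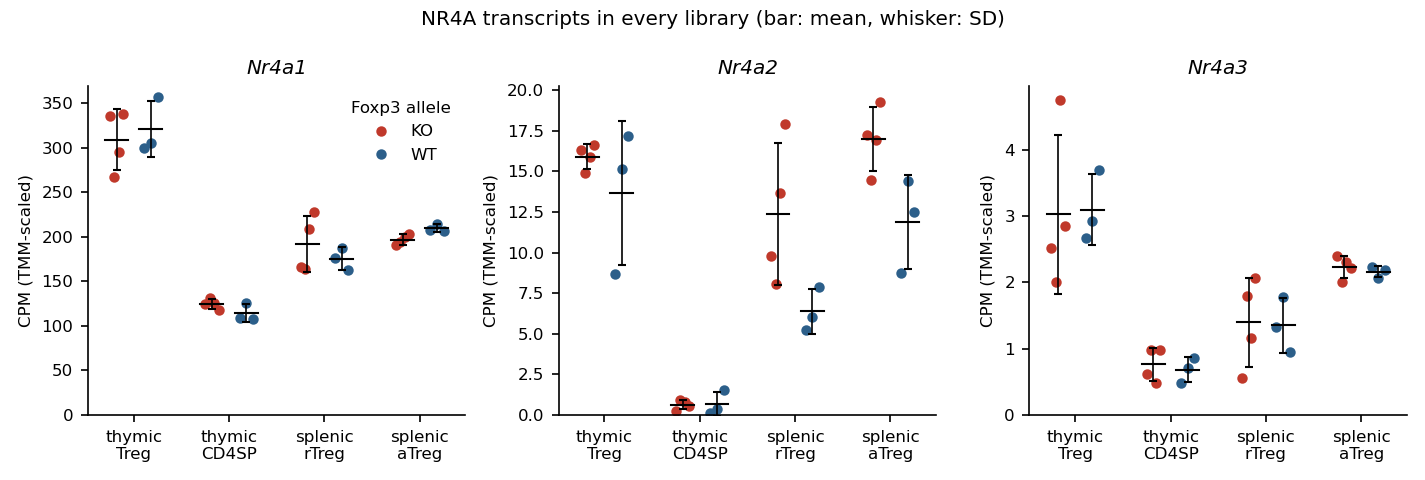
Levels of Nr4a1, Nr4a2 and Nr4a3 (vertical axis, TMM-scaled CPM) in every library of the 4 populations, with KO (red) left of WT (blue), a bar at the mean and whiskers of 1 SD. By mean, all 3 genes are lowest in CD4SP cells, where Nr4a2 stays at or below 1.53 CPM.

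Nr4a2 (chr2:57106830-57124003, minus strand) separated Treg from CD4SP cells far more sharply. It read 16.3, 14.9, 15.9 and 16.6 CPM in KO thymic Treg and 8.70, 15.2 and 17.2 CPM in WT thymic Treg libraries. In CD4SP cells it read 0.245, 0.902, 0.805 and 0.575 CPM in KO and 0.111, 0.378 and 1.53 CPM in WT, which is 3 to 57 counts a library. The lowest Treg library in the series, at 5.22 CPM, stood above the highest CD4SP library. In rTreg cells Nr4a2 read 9.82, 8.05, 13.7 and 17.9 CPM in KO and 5.22, 6.02 and 7.90 CPM in WT, and in aTreg cells 17.3, 14.5, 16.9 and 19.3 CPM in KO and 8.74, 14.4 and 12.5 CPM in WT. In both splenic populations all KO libraries stood above all WT libraries, by a narrow margin. The nearest KO and WT values were 8.05 and 7.90 CPM in rTreg and 14.5 and 14.4 CPM in aTreg cells. Of all genes, 7.85% in rTreg and 8.13% in aTreg cells had KO and WT groups that did not overlap.

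Nr4a3 (chr4:48045153-48086447, plus strand) was scarce in every group. Its 4 KO thymic Treg libraries read 2.51, 2.003, 4.75 and 2.84 CPM and its 3 WT thymic Treg libraries 2.67, 2.93 and 3.69 CPM, against 0.490 to 0.986 CPM in KO and 0.482 to 0.859 CPM in WT CD4SP cells. In spleen it ranged from 0.565 to 2.07 CPM in KO and from 0.953 to 1.78 CPM in WT rTreg cells, and from 1.999 to 2.40 CPM in KO and from 2.06 to 2.23 CPM in WT aTreg cells. These are 13 to 147 counts a library, so its fold changes have wide intervals. Genotypes overlapped in all 4 populations.

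Levels can be compared between genes only per length, here CPM per kilobase of annotated exon. On that scale the NR4A family summed to 92.5 ± 10.02 in KO and 95.2 ± 9.88 in WT thymic Treg cells, and to 35.9 ± 1.63 in KO and 32.9 ± 2.79 in WT CD4SP cells. Nr4a1 made up 95.2% of that sum in KO and 96.0% in WT thymic Treg cells, and 99.2% in KO and 99.1% in WT CD4SP cells. The Nr4a2 share was 6.89 ± 0.648% in KO and 4.63 ± 1.02% in WT aTreg cells, 5.15 ± 0.967% in KO and 3.06 ± 0.833% in WT rTreg cells, and 4.26 ± 0.277% in KO and 3.50 ± 0.928% in WT thymic Treg cells. In CD4SP cells it was 0.431 ± 0.188% in KO and 0.515 ± 0.600% in WT. Nr4a1 thus made up most of the NR4A sum in Treg and CD4SP cells alike, while Nr4a2 took a larger share of it in Treg than in CD4SP cells.

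Egr1 (chr18:34859823-34864984, plus strand) had a 1.45-fold span of group means across the series. Its thymic Treg values were 50.01, 52.9, 61.7 and 62.2 CPM in KO and 69.5, 69.9 and 69.0 CPM in WT. All 4 KO libraries stood below all 3 WT libraries, whose SD was 0.477 CPM. In this comparison 22.1% of all genes had groups that did not overlap. CD4SP libraries ranged from 65.8 to 73.2 CPM in KO and from 70.4 to 74.0 CPM in WT. Splenic levels were 42.0, 49.4, 49.4 and 59.4 CPM in KO and 50.7, 57.1 and 47.7 CPM in WT rTreg cells, and 65.1, 73.1, 64.1 and 61.8 CPM in KO and 73.0, 72.6 and 56.5 CPM in WT aTreg cells. Genotypes overlapped in both splenic populations, and the rTreg groups were the lowest of the 8. 

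Egr2 (chr10:67535475-67542188, plus strand) read 99.3, 62.1, 93.2 and 103 CPM in KO and 90.9, 94.3 and 96.6 CPM in WT thymic Treg cells. One KO library, replicate 2, stood well below the others of its group. CD4SP cells read 59.5, 55.9, 64.8 and 68.5 CPM in KO and 69.3, 72.8 and 58.5 CPM in WT. In rTreg cells the values were 58.0, 58.3, 64.1 and 69.0 CPM in KO and 52.5, 68.3 and 52.0 CPM in WT, and in aTreg cells 105, 107, 93.0 and 103 CPM in KO and 96.5, 121 and 88.3 CPM in WT. The genotypes overlapped in all 4 populations, and aTreg and thymic Treg cells were the high ones. Per kilobase, Egr2 exceeded Egr1 by 2.04 ± 0.139 times in KO and 2.004 ± 0.236 times in WT aTreg cells, and by 1.20 ± 0.117 times in KO and 1.22 ± 0.108 times in WT CD4SP cells.

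Egr3 (chr14:70077203-70082614, plus strand) was scarce, at group means from 0.877 ± 0.442 CPM in KO CD4SP to 2.31 ± 0.579 CPM in KO aTreg cells. It had 13 to 82 counts a library. Egr2 and Egr3 transcripts share 15 identical stretches of 30 bases, so reads from those stretches could be assigned to either or to neither, and Nr4a2 and Nab2 share 2 such stretches. Nab2 (chr10:127660918-127668568, minus strand) ranged from 13.4 to 28.6 CPM, with group means from 16.0 ± 2.02 CPM in KO rTreg to 24.8 ± 4.14 CPM in WT CD4SP cells. It overlaps Stat6, Nemp1 and the antisense gene Gm16229 on the opposite strand, and no source used here says if reads were counted by strand, so its counts are uncertain.

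**Figure D2:**
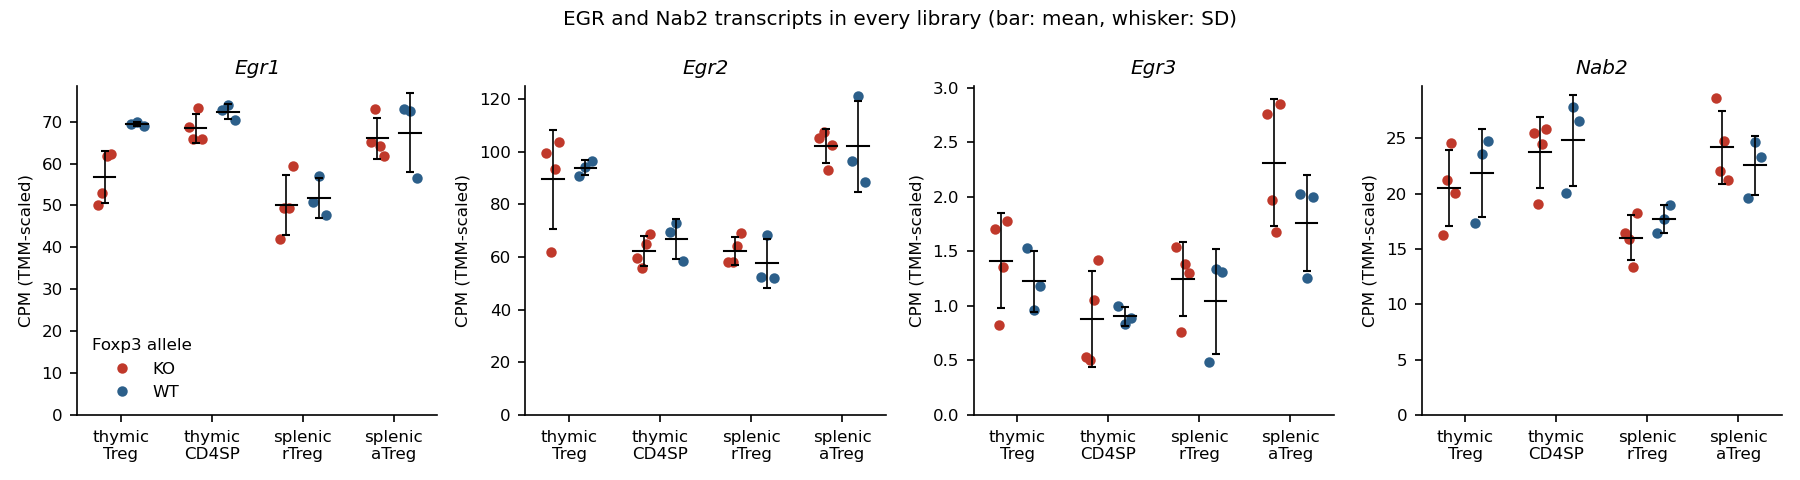
Levels of Egr1, Egr2, Egr3 and Nab2 (vertical axis, TMM-scaled CPM) in every library, with KO (red) left of WT (blue), a bar at the mean and whiskers of 1 SD. In thymic Treg cells the 4 KO libraries for Egr1, at 50.01 to 62.2 CPM, lie below the 3 WT libraries, at 69.0 to 69.9 CPM. Of all genes, 22.1% had KO and WT groups that did not overlap in these cells.

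Does loss of CNS3 change these genes? By edgeR's quasi-likelihood test with Benjamini-Hochberg adjustment over all genes, 0 of 7 members passed the 0.05 threshold in KO against WT in any of the 4 populations. Among all 13338 genes 9.34% passed in thymic Treg cells, 0.195% in CD4SP, 0.135% in rTreg and 0.03% in aTreg cells. At an unadjusted p under 0.05 there was 1 member in thymic Treg cells (Egr1), 0 in CD4SP, 1 in rTreg (Nr4a2) and 0 in aTreg cells. Of all 13338 genes, 3543 were under it in thymic Treg, 828 in CD4SP, 822 in rTreg and 898 in aTreg cells. DESeq2's Wald test called 1 member, Egr1 in thymic Treg cells, and 0 elsewhere. Among all genes that test called 1689 in thymic Treg, 61 in CD4SP, 48 in rTreg and 13 in aTreg cells.

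Nr4a1 had log2 fold changes between -0.09 and 0.13. Its 95% intervals ran from -0.25 to 0.14 in thymic Treg, -0.07 to 0.32 in CD4SP, -0.07 to 0.32 in rTreg and -0.29 to 0.10 in aTreg cells. These were the narrowest intervals of the NR4A genes, and the scarce Nr4a3 and Egr3 had wider ones. Nr4a3's intervals ran from -0.71 to 0.64 in thymic Treg and from -0.65 to 0.74 in aTreg cells, and Egr3's from -0.56 to 0.98 and from -0.36 to 1.15 in the same populations. Egr2 lay between -0.10 and 0.12, with intervals from -0.33 to 0.20 in thymic Treg and -0.15 to 0.38 in rTreg cells. Nab2 lay between -0.15 and 0.10.

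**Figure D3:**
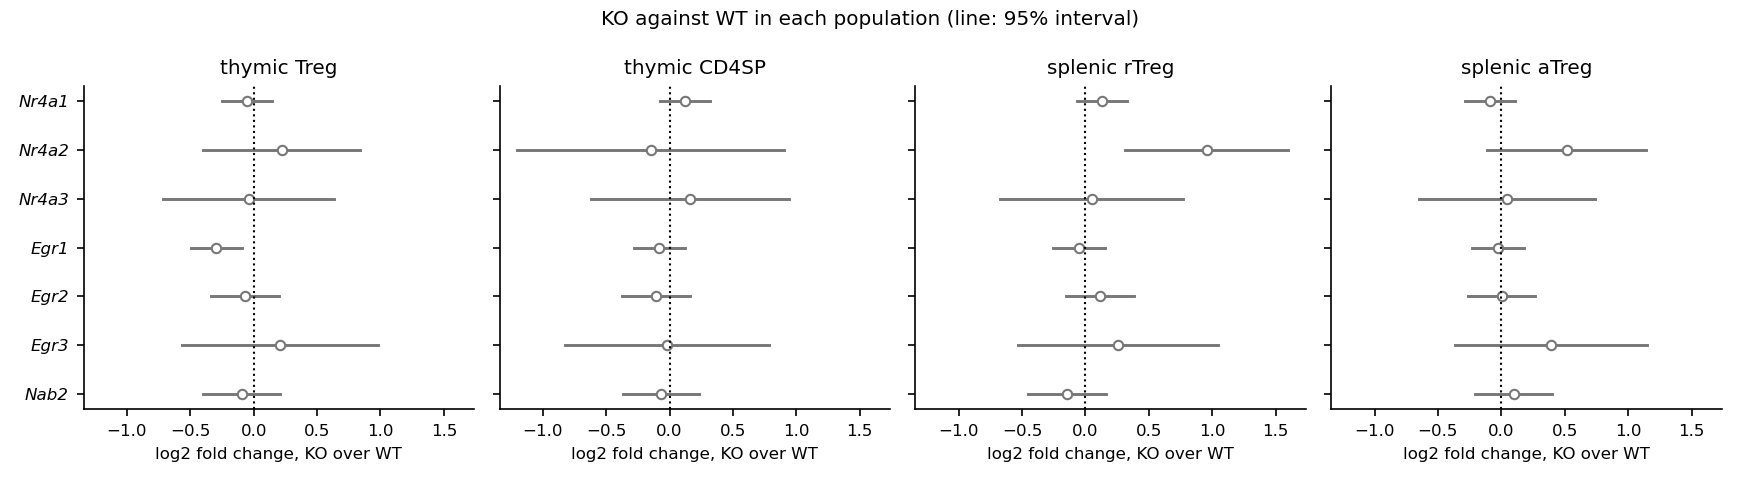
Log2 fold change, KO over WT (horizontal axis), for the 7 genes in each population, with lines for 95% intervals; open grey points did not pass the test. The intervals that leave out 0 are those of Egr1 in thymic Treg cells (-0.50 to -0.09) and of Nr4a2 in rTreg cells (0.31 to 1.60).

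Egr1 in thymic Treg cells stood at 56.7 ± 6.19 CPM in KO and 69.5 ± 0.477 CPM in WT. The log2 fold change was -0.29 (SE 0.0986, 95% interval -0.50 to -0.09, adjusted p = 0.0578 by edgeR), and 22.1% of all genes had groups that did not overlap in this comparison (5.03% in CD4SP cells). The adjusted p was 0.0378 with DESeq2 and 0.0320 without KO replicate 4, so the call depends on the setting. KO libraries also had more myeloid RNA: 10 myeloid markers summed to 399 to 917 CPM in KO and 268 to 367 CPM in WT. Of the 10, 3 rose past the test (9.34% of all genes passed), and none was at 0 in KO. The 2 KO libraries with the most myeloid RNA, 1 and 2 at 707 and 917 CPM, had the lowest Egr1. Without both (and KO CD4SP 2) the Egr1 difference was -0.17 (adjusted p = 0.409). Because both had the lowest Egr1 of the KO libraries, leaving them out shrinks the difference in any case. Of the reads counted in a gene, in no gene or as ambiguous, those outside genes made up 42.3 to 45.0% in KO and 46.3 to 49.3% in WT. With that measure as a covariate the difference was -0.23 (adjusted p = 0.700). The genotypes did not overlap in this measure, so measure and genotype go together in these cells. The parts of myeloid RNA and of reads outside genes were not tested.

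Nr4a2 in splenic Treg cells stood at 12.4 ± 4.39 CPM in KO and 6.38 ± 1.37 CPM in WT rTreg cells, and at 17.0 ± 1.97 CPM in KO and 11.9 ± 2.88 CPM in WT aTreg cells. The log2 fold changes were 0.95 (SE 0.314, 95% interval 0.31 to 1.60, adjusted p = 0.494) and 0.52 (SE 0.306, -0.11 to 1.14, adjusted p = 0.835), neither past edgeR's test. Groups that do not overlap made up 7.85% of genes in rTreg and 8.13% in aTreg comparisons. The highest rTreg values, 13.7 and 17.9 CPM, were in KO libraries 3 and 4, which also had the highest sums of 18 immediate-early and handling stress genes, at 4525 and 4905 CPM, while KO libraries 1 and 2 had 3928 and 3730 CPM and WT rTreg libraries 3490 to 3690 CPM. Without KO libraries 3 and 4, a setting chosen after seeing the data, the Nr4a2 difference was 0.48 (adjusted p = 0.975). In that setting Nr4a1 stood at -0.09, against 0.13 with all libraries, and neither value passed the test. Both libraries were the highest of their group in Nr4a2 and in Nr4a1, so leaving them out lowers both differences in any case. The part of the stress genes was not tested. Nr4a2 in thymic Treg cells, with 15.9 ± 0.757 CPM in KO and 13.7 ± 4.43 CPM in WT, gave 0.22 (adjusted p = 0.682), and in CD4SP cells, with 0.632 ± 0.292 CPM in KO and 0.673 ± 0.754 CPM in WT, -0.15 (interval -1.20 to 0.90).

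No member (0 of 7 each) passed edgeR's test for KO effects differing between thymic Treg cells and CD4SP, rTreg or aTreg cells. Of all genes 0.615%, 0.03% and 0.847% passed. At an unadjusted p under 0.05 it was 0 of 7 each as well, against 1844, 1318 and 2168 of the 13338 genes. For Egr1 the KO effect in thymic Treg minus that in CD4SP cells was -0.21 (95% interval -0.50 to 0.07), and for Nr4a2 thymic Treg minus rTreg was -0.73 (-1.63 to 0.16). These comparisons share the KO and WT thymic Treg libraries.

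The populations were compared with each other in WT cells, and 2 of these contrasts also in KO cells. In WT thymic Treg against CD4SP cells, 4 of 7 members passed, all higher, against 48.3% of all genes called in either direction (26.8% higher). Nr4a1 rose by 1.48 (SE 0.102, adjusted p = 1.39e-12), Nr4a2 by 4.26 (SE 0.437, 1.54e-09), Nr4a3 by 2.16 (SE 0.378, 3.06e-05) and Egr2 by 0.49 (SE 0.138, 0.00453), on the log2 scale by edgeR. Egr1 (-0.06, adjusted p = 0.670), Egr3 (0.44, 0.391) and Nab2 (-0.18, 0.347) did not pass. In KO cells the same 4 rose, Nr4a1 by 1.31, Nr4a2 by 4.63, Nr4a3 by 1.96 and Egr2 by 0.53, and Egr1 fell by 0.27 (adjusted p = 0.0137), a call lost without KO thymic Treg replicate 1 (-0.21, adjusted p = 0.0650) and without KO thymic Treg 1 and 2 and CD4SP 2 together (-0.15, adjusted p = 0.288). In KO, 56.5% of all genes passed, 30% higher and 26.5% lower. Without WT CD4SP replicate 3, which held the highest Nr4a2 of its group, the Nr4a2 difference was 5.67 in WT. Myeloid markers were higher too, with 7 of 10 past the test and sums of 268 to 367 CPM in WT thymic Treg and 92.0 to 105 CPM in WT CD4SP cells. In the same WT contrast 9 of 18 immediate-early and handling stress genes rose and 2 fell, and 5 of 6 tested B cell markers rose. The part of these lists in the results was not tested.

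The splenic populations gave a like picture for NR4A against CD4SP cells. In WT rTreg cells 5 of 7 passed (42.9% of genes, 23.3% higher and 19.7% lower): Nr4a1 rose by 0.61 (SE 0.103, adjusted p = 1.59e-05), Nr4a2 by 3.17 (SE 0.444, 4.68e-07) and Nr4a3 by 0.96 (SE 0.389, 0.0459), while Egr1 fell by 0.48 (SE 0.106, 0.000457) and Nab2 fell by 0.49 (SE 0.158, 0.0138). The Nr4a3 call was lost without WT CD4SP replicate 1 or 2 or WT rTreg replicate 1 or 2 (lowest value 0.72), with no filter on low counts (adjusted p = 0.0630) and with only the groups compared (0.0603). The Nab2 call was lost without WT CD4SP replicate 2 or 3 or WT rTreg replicate 1 (weakest value -0.38) and with the percentage of reads outside genes as a covariate (-0.32, adjusted p = 0.301). In WT aTreg cells 5 of 7 rose (55.3% of genes, 29% higher): Nr4a1 by 0.87, Nr4a2 by 4.06, Nr4a3 by 1.64, Egr2 by 0.61 and Egr3 by 0.96 (adjusted p = 0.0474). The Egr3 call held without WT aTreg replicate 2 and was lost without any other single library of those groups (0.84 at the lowest), with no filter (adjusted p = 0.0695) and with the covariate (0.82, adjusted p = 0.162). Without WT CD4SP replicate 3 the Nr4a2 difference was 4.58 in WT rTreg and 5.47 in WT aTreg cells. Beside these results, 12 of 18 immediate-early and handling stress genes rose in WT rTreg and 13 of 18 in WT aTreg against CD4SP cells, and 0 fell in either. All 6 tested B cell markers rose in both, with sums of 62.6 to 73.8 CPM in WT rTreg, 93.5 to 110 CPM in WT aTreg and 6.56 to 7.38 CPM in WT CD4SP cells, and 7 of 10 myeloid markers rose in WT aTreg cells (290 to 344 CPM in WT aTreg and 92.0 to 105 CPM in WT CD4SP cells). The part of these lists was not tested.

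WT rTreg cells had less of 5 members than WT thymic Treg cells (30.6% of genes passed, 16.7% lower). Nr4a1 fell by 0.87 (SE 0.102, adjusted p = 2.14e-07), Nr4a2 by 1.10 (SE 0.333, 0.0136), Nr4a3 by 1.20 (SE 0.362, 0.0132), Egr1 by 0.42 (SE 0.106, 0.00305) and Egr2 by 0.71 (SE 0.139, 0.000319). The Nr4a2 call was lost without WT thymic Treg replicate 3 or WT rTreg replicate 1, and the Nr4a3 call without replicate 3 of either group; the values were then -0.89 and -0.96 for Nr4a2, and -1.05 and -0.99 for Nr4a3. Of 10 myeloid markers 7 fell as well, with sums of 118 to 123 CPM in WT rTreg and 268 to 367 CPM in WT thymic Treg libraries, and their part was not tested. WT aTreg cells differed from WT thymic Treg cells in 1 member (40.3% of genes, 20.4% lower), Nr4a1, which fell by 0.61 (SE 0.102, adjusted p = 2.1e-05). These contrasts cross tissues. The 18 immediate-early and handling stress genes summed to 3082 to 3230 CPM in WT aTreg, 3490 to 3690 CPM in WT rTreg and 1749 to 1868 CPM in WT thymic Treg libraries. In rTreg against thymic Treg cells 12 of the 18 rose and 1 fell, while 5 of the 7 members fell; the list rose by a median of 1.17 and the members had a median of -0.71, against -0.01 over all genes.

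In WT aTreg against rTreg cells, 4 of 7 rose (37.9% of genes, 19.9% higher). Nr4a1 rose by 0.26 (SE 0.102, adjusted p = 0.0476), Nr4a2 by 0.89 (SE 0.335, 0.0370), Egr1 by 0.38 (SE 0.106, 0.00555) and Egr2 by 0.83 (SE 0.139, 2.77e-05). Nr4a3 (0.68, adjusted p = 0.148), Egr3 (0.75, 0.147) and Nab2 (0.35, 0.0861) did not pass. The Nr4a1 call was lost on leaving out any library of the 2 groups but WT rTreg replicate 2, and the Nr4a2 call without WT rTreg replicate 1 or 2 or WT aTreg replicate 2 or 3 (0.73 at the lowest). With the covariate neither passed (adjusted p = 0.0815 for Nr4a1 and 0.0652 for Nr4a2), nor did Nr4a1 with no filter (0.0683) or Nr4a2 with DESeq2 (0.0906). In KO cells, with 41.6% of genes called and 21.7% higher, Egr1 (0.40), Egr2 (0.71), Egr3 (0.88, adjusted p = 0.0420) and Nab2 (0.59) rose, while Nr4a1 was at 0.04 (adjusted p = 0.761) and Nr4a2 at 0.45 (0.205). The Egr3 call was lost without KO rTreg replicate 2, 3 or 4 or KO aTreg replicate 1 or 4, with no filter (adjusted p = 0.0627) and with the covariate (0.0870), which also ended the Nab2 call (0.46, adjusted p = 0.0598). Without KO rTreg replicates 3 and 4 together, added after seeing the data, Nr4a1 in KO was 0.25 (adjusted p = 0.0370) and Nr4a2 0.92 (0.0483), while Egr3 no longer passed (0.99, 0.105). Those replicates held the highest Nr4a1 and Nr4a2 of KO rTreg cells, so leaving them out raises both differences in any case. Myeloid markers rose in 7 of 10 in WT aTreg cells, with sums of 290 to 344 CPM in WT aTreg and 118 to 123 CPM in WT rTreg cells, and their part was not tested.

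**Figure D4:**
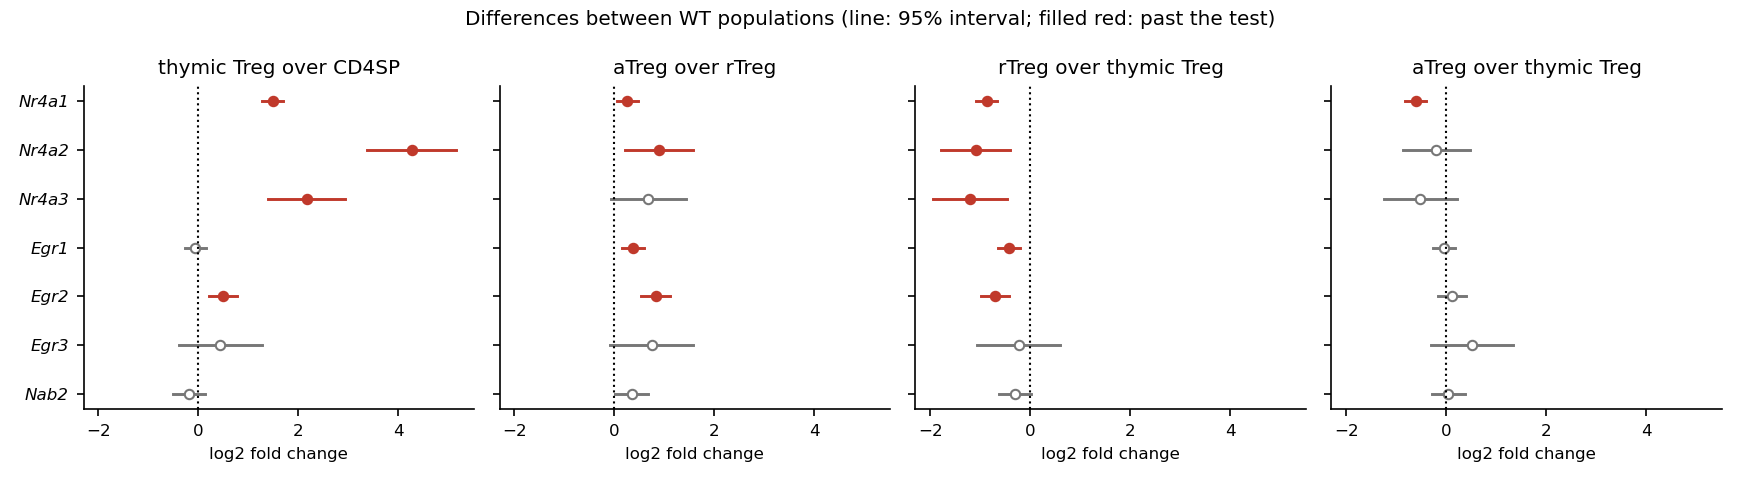
Log2 fold change (horizontal axis) of the 7 genes between WT populations, named above each panel as first over second, with lines for 95% intervals; filled red points passed the test. Nr4a2 moves furthest, at 4.26 in thymic Treg over CD4SP cells, and Egr2 is higher by 0.83 in aTreg over rTreg cells.

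Lists of related genes describe the setting of these values. Of 18 TCR response reporters, 15 rose and 0 fell in WT thymic Treg against CD4SP cells (median 1.59, against 0.03 over all genes, of which 26.8% rose), including the co-stimulatory receptors Tnfrsf4 (3.72) and Tnfrsf18 (2.72) and the activation marker Cd83 (6.55). The reporter list shares Il2ra, Ctla4 and Tnfrsf18 with a list of 5 Treg markers, and all 5 of those rose here. In KO against WT, 5 of the 18 rose in thymic Treg cells and 0 fell (9.34% of all genes passed), with Icos at 0.48 (adjusted p = 0.000192), Tnfrsf18 at 0.29 and Tnfrsf4 at 0.31. In the same comparison 5 of 8 markers of the activated or effector state, a list that also holds Icos, rose (median 0.77; sums of 1145 to 1441 CPM in KO and 855 to 1016 CPM in WT), as did 3 of 10 myeloid markers (median 1.16), whose part was not tested. Without KO thymic Treg 1 and 2 and CD4SP 2, 4 of 18 reporters, 5 of 8 activated or effector markers and 1 of 10 myeloid markers rose (4.69% of all genes passed). In KO CD4SP cells 4 of the 18 rose (0.195% of all genes passed), among them Cd83 (0.91), the IL-2 receptor chain Il2ra (2.38) and the inhibitory receptor Ctla4 (0.68). KO CD4SP 2, the library that stood apart, held the highest level of each of these 3: its Il2ra was 133 CPM, against 17.3 to 21.9 CPM in the other KO and 7.77 to 11.6 CPM in WT CD4SP libraries. Without it, a setting added after seeing the data, 2 of 18 rose (0.165% of all genes passed), Cd83 by 0.65 and Il2ra by 1.12 (adjusted p = 9.49e-06), and Ctla4 was at 0.48 (0.0948). In rTreg and aTreg cells 0 of 18 passed edgeR's test. Of the 5 Treg markers, 3 rose in KO CD4SP cells with all libraries used, Il2ra and Ctla4 among them, and Foxp3 fell.

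Of 14 tested partners and upstream regulators (16 listed), 1 rose and 1 fell in KO against WT thymic Treg cells, where 9.34% of all genes passed. Rxra, a nuclear receptor partner of Nr4a1 and Nr4a2, rose by 0.61 (adjusted p = 0.00916). Elk4, a cofactor of serum response factor, fell by 0.41 (0.00888, and 0.106 without KO thymic Treg 1 and 2 and CD4SP 2). In KO against WT in the other populations 0 passed. Rxra also differed between populations in WT, at 0.99 in thymic Treg over CD4SP cells and 1.03 in aTreg over rTreg cells. Nab1, the relative of Nab2, fell by 0.35 in WT thymic Treg against CD4SP cells and rose by 0.31 in aTreg against rTreg cells. Of 18 restraint and anergy genes linked to EGR2, EGR3 or NR4A, 2 fell and 0 rose in KO thymic Treg cells (9.34% of all genes passed). The 2 that fell were the pro-apoptotic gene Bcl2l11 (-0.49, adjusted p = 0.00112) and the diacylglycerol kinase Dgkz (-0.21, 0.0341, and 0.102 without those 3 libraries). In WT thymic Treg against CD4SP cells 11 of these 18 rose and 2 fell (48.3% of all genes passed, 26.8% higher), with Ikzf4 at 2.74, the inhibitory receptor Lag3 at 4.07 and Tox at 0.94. In aTreg against rTreg cells 7 rose and 9 fell (37.9% of all genes passed), so the list did not go one way.

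The 18 immediate-early and handling stress genes had 1 member past the test in KO against WT in each splenic population, Klf6, a zinc finger factor (0.61 in rTreg, adjusted p = 0.00331, and 0.54 in aTreg, 0.0273). Of all genes 0.135% passed in rTreg and 0.03% in aTreg cells. Without KO rTreg 3 and 4 the rTreg value of Klf6 was 0.41 (adjusted p = 0.309). Medians were 0.38 in rTreg and 0.45 in aTreg cells, against 0.00 over all genes. In thymic Treg cells Fosb (1.38) and Klf6 (0.31) rose, the second a call lost without KO thymic Treg 1 and 2 and CD4SP 2 (adjusted p = 0.0739), and in CD4SP cells Jun rose (1.43). Of all genes 9.34% passed in thymic Treg and 0.195% in CD4SP cells. The sums in aTreg cells were 3459 to 4082 CPM in KO and 3082 to 3230 CPM in WT, those in rTreg cells 3730 to 4905 CPM in KO and 3490 to 3690 CPM in WT, and the genotypes did not overlap in either. The 7 members of the NR4A and EGR set had a median of 0.12 in rTreg and 0.04 in aTreg cells.

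**Figure D5:**
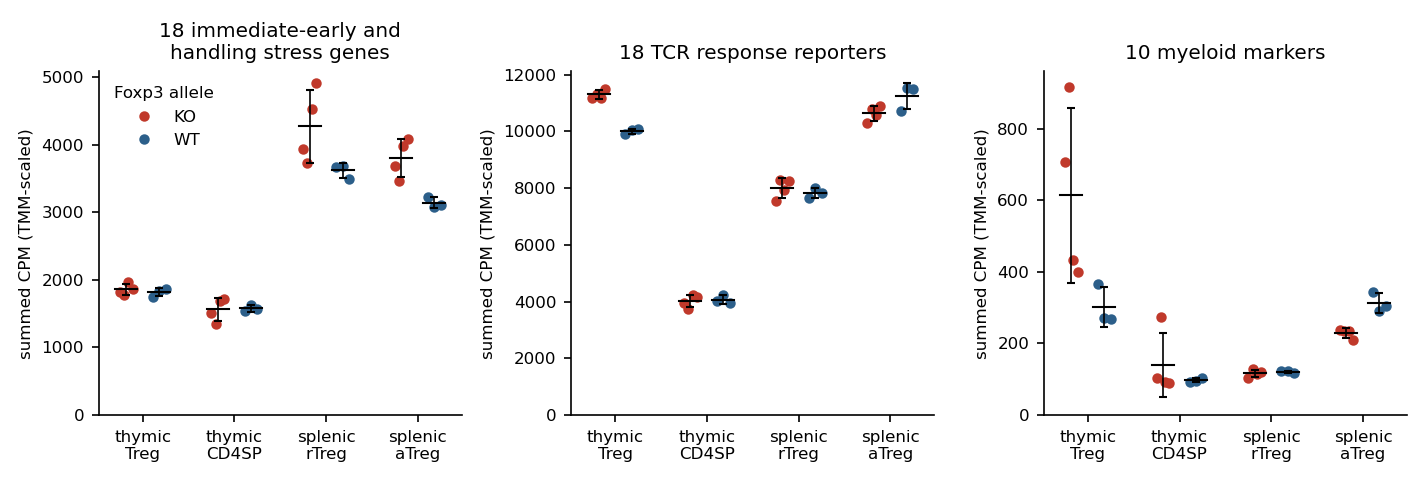
Summed levels (vertical axis, TMM-scaled CPM) of 18 immediate-early and handling stress genes, 18 TCR response reporters and 10 myeloid markers in every library, with KO (red) left of WT (blue), a bar at the mean and whiskers of 1 SD. Splenic libraries stand above thymic ones in the first panel, and KO thymic Treg libraries, at 399 to 917 CPM, above WT, at 268 to 367 CPM, in the third.

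Genes whose level pattern was most like each member, by Pearson's r over the 28 libraries, were Maged2 (0.964), Lrmp (0.963) and Eno2 (0.961) for Nr4a1, Pmaip1 (0.970), Endod1 (0.970) and Tbc1d30 (0.969) for Nr4a2, and Pwwp2b (0.923), Rad51b (0.912) and Serpinc1 (0.910) for Nr4a3. For Egr1 they were Ssbp3 (0.799), Rnft1 (0.798) and Med14 (0.777), for Egr2 Klf10 (0.887), Arfgap3 (0.879) and Cacna1d (0.871), for Egr3 Trpv2 (0.789), Ildr1 (0.785) and Tbcd (0.783), and for Nab2 Rnft1 (0.821), Ddx19a (0.820) and Nab1 (0.811). These values mostly follow the 4 populations, which the points share. With group means taken out, the most alike were Dnase2a (0.781) for Nr4a1, Dhx15 (0.828) for Nr4a2, Ska2 (0.677) for Nr4a3, Slc24a3 (0.717) for Egr1, Zfp36 (0.840) for Egr2, Tert (0.758) for Egr3 and Klhdc2 (0.796) for Nab2. Among members, the deviations of Nr4a1 and Egr2 had r = 0.59 and those of Egr1 and Egr2 0.54 over 28 libraries, and those of Nr4a2 had 0.01 with Egr1 and -0.03 with Egr2. These are descriptions across libraries that share sorting and preparation.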

How the data were processed

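The data are 28 libraries of mouse CD4 T cells in 8 groups, assigned from sample titles. TRIzol-extracted RNA was SMART-amplified and read from both ends on a HiSeq instrument, per the labels' protocols. The submitters' processing notes name HTSeq, STAR, Trimmomatic and the mm10 build; no source used here gives versions, annotation or strand setting. Deposited values are the authors' unnormalized counts per gene symbol. Lines that name no gene stayed out of library sizes. Of the reads counted in a gene, in no gene or as ambiguous, 42.3 to 49.7% lay in no gene. Other reads without a gene are not part of this percentage.

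Counts were fitted in edgeR 4.0.16 (R 4.3.3) with TMM scaling (factors 0.970 to 1.04) and filterByExpr: 1 fit to all 28 libraries with a mean per group, quasi-likelihood F test and Benjamini-Hochberg adjustment over the genes tested, at a threshold of 0.05. CPM used the TMM-scaled library sizes. SE and 95% intervals come from the moderated quasi-dispersion. The fit was tested on simulated counts. Alternatives were DESeq2 1.42.0, its size factors, no filter, fewer libraries, a replicate block, a covariate and leaving out libraries. Promoters came from RefSeq, gene positions and exon lengths from GENCODE M21. The 7 members are named everywhere; from each list at most 3 genes a direction with the smallest p past the test are named, and for likeness the 3 highest r. Members and lists were chosen with earlier results of these data known. Replicate numbers come from the titles. Deviations of same-numbered libraries correlated over 0.1 in every pair for KO aTreg with rTreg cells (0.121 to 0.232). The same held for WT thymic Treg with CD4SP (0.107 to 0.133) and WT rTreg with CD4SP cells (0.102 to 0.145). The main fit paired no libraries in any contrast. The replicate block, an alternative, used the numbers in every contrast. PCR duplicates are not marked in these counts.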

Additional observations from a re-analysis of the deposited data

How the results depend on the processing

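Of 33 member differences past the test, recomputed 451 times, 406 stayed past it in the same direction, 45 did not and 0 reversed; 23 stayed past it under every alternative. Of the others, recomputed 711 times, 55 changed sign and 11 came past the test; 0 of the 55 passed it. The count of members called in KO against WT thymic Treg cells was 1 rather than 0 with no filter on low counts (Egr1, adjusted p = 0.0433), with DESeq2's Wald test (0.0378) and with the replicate block (0.0364), and 0 to 1 on leaving out a library. With the percentage of reads outside genes as a covariate, 2 rather than 4 members were called in WT aTreg against rTreg cells and 2 rather than 4 in KO aTreg against rTreg cells. Leaving out single libraries gave 3 to 5 members in WT rTreg against CD4SP cells, 3 to 6 in WT rTreg against thymic Treg cells and 2 to 3 in WT aTreg against rTreg cells. Causes were not tested.

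Without KO thymic Treg 1 and 2 and CD4SP 2, KO against WT reversed to 0.28 for Nr4a3, 0.066 for Egr2 and 0.025 for Nab2 in thymic Treg cells, and to 0.17 for Egr3 and 0.024 for Nab2 in CD4SP cells. Without KO rTreg 3 and 4, Nr4a1 in rTreg cells was -0.089 and Nr4a3 -0.22. Nr4a3 was -0.082 in rTreg and -0.033 in aTreg cells with the replicate block and -0.090 in aTreg cells with the covariate, which also put Nr4a1 at -0.016 in KO aTreg against rTreg cells. Egr2 in aTreg cells was -0.0030 with DESeq2's size factors, -0.0033 with its test, -0.0021 with only the groups compared and -0.039 with the block.

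On leaving out single libraries, KO against WT ranged in thymic Treg cells from -0.10 to 0.031 for Nr4a1, -0.024 to 0.42 for Nr4a2, -0.33 to 0.11 for Nr4a3, -0.15 to 0.072 for Egr2 and -0.24 to 0.0054 for Nab2. In CD4SP cells it ranged from -0.56 to 1.25 for Nr4a2, -0.020 to 0.36 for Nr4a3, -0.37 to 0.17 for Egr3 and -0.20 to 0.024 for Nab2. In rTreg cells it ranged from -0.21 to 0.32 for Nr4a3, -0.14 to 0.027 for Egr1 and -0.080 to 0.47 for Egr3, and in aTreg cells from -0.14 to 0.034 for Egr1 and -0.10 to 0.14 for Egr2. Between WT populations, Egr1 ranged from -0.17 to 0.027 in aTreg against CD4SP and -0.11 to 0.075 in aTreg against thymic Treg cells, Egr2 from -0.023 to 0.22 and Nab2 from -0.10 to 0.14 in the same contrast, and Egr3 from -0.00070 to 0.56 in rTreg against CD4SP and -0.44 to 0.11 in rTreg against thymic Treg cells. Nr4a1 in KO aTreg against rTreg cells ranged from -0.029 to 0.13.

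Same-numbered KO and WT libraries did not all deviate together, with r from -0.0965 to 0.157 over 12 pairs, 5 of them over 0.1. Apart from Egr1 in thymic Treg cells, the replicate block changed no call, nor the count of members called between populations. Depth limits Nr4a3, Egr3 and, in CD4SP cells, Nr4a2.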
